A study of Mus musculus with 12 samples.

Results

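The pro-survival members of the Bcl2 family are the genes Bcl2, Bcl2l1, Bcl2l2, Mcl1, Bcl2a1a, Bcl2a1b and Bcl2a1d. They were taken by gene name from the deposited table, where all 7 were found among 29486 listed genes. All 7 also passed a filter of at least 10 counts in at least 4 libraries, as did 15573 genes in all. Total mRNA was sequenced from splenic B cells of C57BL/6Babr mice, which the labels describe as primary cells isolated with a B cell kit and activated with LPS (10 μg/ml). The control cells (LPS) had received LPS for 48 h. The damaged cells (LPS+etoposide) had received LPS for 48 h and then etoposide, a topoisomerase II inhibitor that causes DNA double-strand breaks, at 20 μM for 4 h. The inhibitor cells (LPS+KU55933+etoposide) had received LPS for 47 h, the ATM kinase inhibitor KU55933 at 10 μM for 1 h and then the same etoposide treatment. Each condition had 4 libraries, from biological replicates by the account of the study, and no cells received KU55933 without etoposide. The labels do not say whether the LPS cells stayed in culture for the further 4 h, and no Illumina index was used in more than 1 condition, so that index and treatment cannot be told apart.

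Pro-survival Bcl2 proteins keep cells alive by holding the pore-forming proteins Bax and Bak at the mitochondrial outer membrane in check and by binding the BH3-only proteins that respond to stress. Bcl2 is the founding member, Bcl2l1 encodes Bcl-xL (and a short splice form that favours death), Bcl2l2 encodes Bcl-w, Mcl1 encodes a short-lived protein on which many lymphocytes depend, and the Bcl2a1 genes encode A1, which NF-kB signalling is known to induce in activated B cells. In the mouse, A1 is encoded by several near-identical gene copies.

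Any 2 deposited columns of a condition had the same ratio for every gene, to within 2.7e-14 on the log2 scale. The columns therefore hold 1 fitted mean per condition multiplied by a size factor per library, and they carry no spread between replicates. For this reason no test could be made, the values below have no error, and whether a difference exceeds the spread between replicates is not known. Differences are given on the log2(value + 1) scale after division by the size factor and are read against all 15573 genes. A gene at 1.5-fold or more is called past the limit. The column totals, which stand for depth, were 20739978 to 23935658 fitted counts with LPS, 22523516 to 30575195 with LPS+etoposide and 20400994 to 25052093 with LPS+KU55933+etoposide. All 6 B cell markers were expressed, and the lowest in each condition was Pax5, with 5519, 1115 and 1155 fitted counts in the same order. Markers of other cells were low. The 6 macrophage markers summed to 416, 465 and 427 counts, although with etoposide 3 of them were past 1.5-fold upward (Cd68, from 104 to 210 counts, Cd14, from 5.15 to 24.1, and Csf1r, from 4.16 to 10.3) and Itgam was past it downward (from 219 to 128), and the part of this in the members' values was not tested. In the same order of conditions, the 6 red blood cell markers summed to 217, 185 and 115, the 6 T cell markers to 14.9, 16.0 and 15.2, the 6 neutrophil markers to 2.51, 15.4 and 4.72, and the 4 NK cell markers listed to 1.68, 2.66 and 2.74.

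The copies of A1 are shown first, because their sequences limit what can be said of each. Below are the first 120 coding bases of Bcl2a1a (chr9:88957051-88957170, plus strand), Bcl2a1b (chr9:89199360-89199479, plus strand) and Bcl2a1d (chr9:88731600-88731719, minus strand), read from the GENCODE M21 transcripts on GRCm38. Capitals mark the 7 positions at which the 3 copies are not all alike.
Bcl2a1a: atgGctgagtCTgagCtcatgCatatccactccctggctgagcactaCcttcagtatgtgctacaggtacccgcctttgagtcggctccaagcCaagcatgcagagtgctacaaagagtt
Bcl2a1b: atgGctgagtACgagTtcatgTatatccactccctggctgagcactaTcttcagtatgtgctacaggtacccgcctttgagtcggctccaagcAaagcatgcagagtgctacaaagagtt
Bcl2a1d: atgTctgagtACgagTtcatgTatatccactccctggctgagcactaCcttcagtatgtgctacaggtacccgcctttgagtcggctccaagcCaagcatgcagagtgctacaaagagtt

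Over whole transcripts, Bcl2a1a differed from Bcl2a1b at 15 of 817 aligned bases and from Bcl2a1d at 10 of 819, and Bcl2a1b differed from Bcl2a1d at 7 of 817. The reads were 100 bases long. Of the windows of that length in the transcripts, 43.5% for Bcl2a1a, 56.8% for Bcl2a1b and 54.7% for Bcl2a1d occurred unchanged in the transcript of another gene. The other genes were the other A1 copies and Gm29094, and windows shared with Gm29094 alone were not counted apart. Reads from windows shared between copies cannot be assigned to 1 copy. The level of each copy is therefore uncertain, and the split among the 3 is more uncertain than their common direction. None of the windows of Bcl2, Bcl2l1 or Mcl1 occurred in another gene. For Bcl2l2 10.9% did, all in Gm20521, a gene on the same strand that shares 594 exonic bases with it. In the same way, Gm29094 shares 401 bases, or 49.1% of the exonic length, with Bcl2a1b. Neither Gm20521 nor Gm29094 is among the listed genes. On the opposite strand, D630008O14Rik overlaps 6.09% of the exonic length of Bcl2, and whether strand was used in counting is not given in the sources used here. It stood at 13.9, 12.0 and 8.09 fitted counts in the 3 conditions.

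The promoters of the A1 copies were also alike. The 3 stretches below, of 100 bases each, come from the RefSeq promoter windows of GRCm38.p6. They lie immediately upstream of the RefSeq start of Bcl2a1a (chr9:88956820-88956919, plus strand), with the aligned bases of Bcl2a1b (chr9:89199129-89199228, plus strand) and Bcl2a1d (chr9:88731851-88731950, minus strand). Capitals mark the 2 positions at which the copies differ.
Bcl2a1a: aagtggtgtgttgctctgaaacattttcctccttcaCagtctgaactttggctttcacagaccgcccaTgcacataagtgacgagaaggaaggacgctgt
Bcl2a1b: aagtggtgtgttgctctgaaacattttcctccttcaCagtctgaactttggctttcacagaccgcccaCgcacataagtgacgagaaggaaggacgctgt
Bcl2a1d: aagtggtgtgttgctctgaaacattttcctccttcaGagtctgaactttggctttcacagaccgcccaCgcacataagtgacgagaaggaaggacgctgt

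Whole windows, of 250 bases before and 50 after the start, were 99.2% identical between Bcl2a1a and Bcl2a1b over 256 aligned bases and 98.0% identical between Bcl2a1a and Bcl2a1d over 294. The GC box GGGCGG, searched on both strands, was present in all 3, in each as its reverse complement within the stretch above. It was also present in the windows of Bcl2, Bcl2l2 and Mcl1 and in none of the 3 windows of Bcl2l1, against 35.7% of all 32851 promoter windows. The kB consensus of NF-kB was found in 1 of the 9 member windows, that of a Bcl2l1 start, against 8.46% of all windows. The decameric site of p53, the AP-1 site (TGACTCA or TGAGTCA) and the CRE (TGACGTCA) were found in none of the 9, against 8.36%, 5.20% and 1.79% of all windows. These matches describe the letters in short windows and not binding.

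Etoposide was compared with LPS alone to ask how DNA damage changed the abundance of these transcripts. Bcl2 mRNA was at 0.294 times its control level, at the 0.758th percentile of the differences of all genes. Bcl2l2 was at 0.633 times its control level, and Mcl1 and the 3 A1 genes were lower by smaller amounts. Bcl2l1 was the one member that was higher, at 1.27 times the control level. Thus 2 of the 7 members were past 1.5-fold downward, in a data set in which 16.5% of all genes were, and none was past it upward, where 21.8% of all genes were. At 2-fold, 1 member was lower, against 6.09% of all genes. The median difference was −0.36 over the members and −0.021 over all genes, and 6 of 7 members were lower, against 51.5% of all genes. The 3 A1 genes, which share reads, count here as 3 of the 7 members, and the median is the value of Bcl2a1a.

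Bcl2 (ENSMUSG00000057329, GRCm38 chromosome 1, 106538178 to 106714274, minus strand) had deposited values of 4859, 5391, 5608 and 5053 in the 4 LPS libraries. The 4 libraries with LPS+etoposide had 1701, 1906, 2309 and 1848. With KU55933 as well they had 1295, 1461, 1565 and 1590. The 4 values within a condition differ only by the size factors of the libraries, here and for every other gene, so that whether the groups overlap says nothing of replicates. Divided by these factors the fitted means were 5919 with LPS, 1740 with LPS+etoposide and 1414 with the inhibitor as well. The difference with etoposide was −1.77, and it lay between −1.85 and −1.56 under every other scaling and pseudocount tried. B cell markers were lower in the same libraries. With etoposide 5 of 6 were past 1.5-fold downward, against 16.5% of all genes. Their sum went from 133050 to 72709 counts, and Cd22 (24007 to 4251 counts) and Pax5 (5519 to 1115) differed most. With the inhibitor as well the sum was 81768. The part of this change in the difference of Bcl2 and of the other members was not tested, and in bulk samples fewer cells of a type and less RNA per cell cannot be told apart.

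Bcl2l1 (ENSMUSG00000007659, chromosome 2, 152780668 to 152831728, minus strand) had deposited values of 1168, 1295, 1347 and 1214 with LPS. With LPS+etoposide it had 1770, 1984, 2403 and 1923. With the inhibitor it had 1136, 1281, 1373 and 1395. The fitted means were 1422, 1810 and 1240 in the same order, highest with etoposide, and the difference with etoposide was 0.35, at the 71.0th percentile of all genes and within the 1.5-fold limit.

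Mcl1 (ENSMUSG00000038612, chromosome 3, 95658788 to 95663176, plus strand) had deposited values of 12328, 13678, 14228 and 12820 with LPS. With LPS+etoposide it had 12175, 13646, 16527 and 13229. With the inhibitor it had 8798, 9921, 10628 and 10803. The fitted means were 15016, 12453 and 9603, lowest with the inhibitor, and the difference with etoposide was −0.27. This last value depended on the scaling, being −0.36 with medians of ratios, −0.14 with library totals and −0.013 after quantile normalization.

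**Figure D1:**
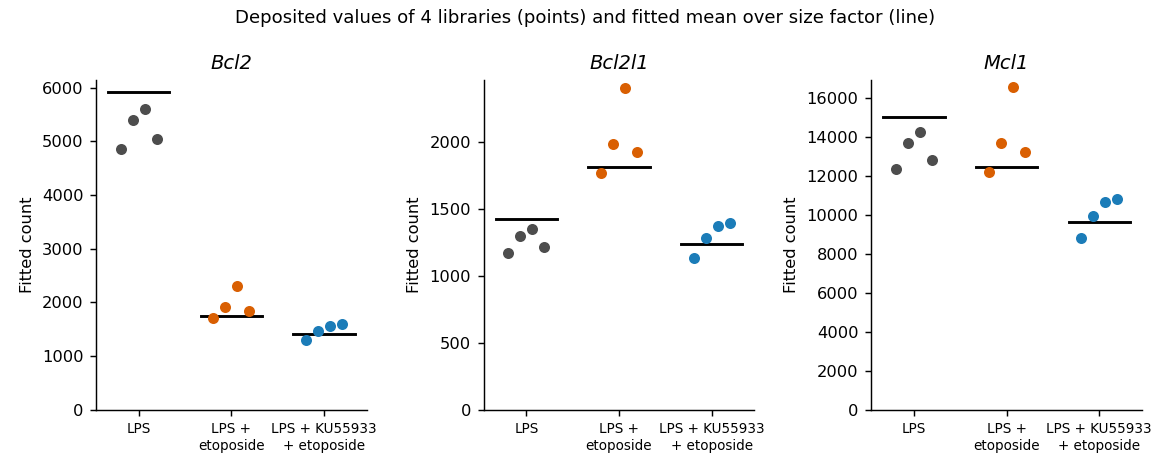
Fitted counts of Bcl2, Bcl2l1 and Mcl1 (vertical axes, from 0) in the 3 conditions; points are the 4 deposited libraries of a condition and lines are the fitted mean divided by the size factor. The lines step down from 5919 to 1740 and 1414 for Bcl2, peak at 1810 with etoposide for Bcl2l1, and step down from 15016 to 12453 and 9603 for Mcl1.

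Bcl2l2 (ENSMUSG00000089682, chromosome 14, 54883377 to 54888234, plus strand) had a fitted mean of 758 with LPS and 479 with LPS+etoposide. This difference of −0.66 was past the 1.5-fold limit with the size factors of the authors and fell within it, at −0.53, when library totals set the scale. Bcl2a1d (ENSMUSG00000099974, chromosome 9, 88723285 to 88731914, minus strand) went from 3392 to 2620 counts, a difference of −0.37. Bcl2a1a (ENSMUSG00000102037, chromosome 9, 88956900 to 88962419, plus strand) went from 1127 to 877, a difference of −0.36. Bcl2a1b (ENSMUSG00000089929, chromosome 9, 89199209 to 89207827, plus strand) went from 1251 to 1069, a difference of −0.23. All 3 A1 genes kept this direction under every scaling tried, with values from −0.46 to −0.094.

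KU55933 was added before etoposide to ask which of these differences depended on the ATM kinase. Relative to LPS+etoposide, 3 members were lower with the inhibitor and 4 were higher, in a data set in which 54.97% of all genes were lower. The 3 A1 genes, which share reads, were all among the 4 higher members. Whether this split differs from that of all genes was not tested. Bcl2l1, Mcl1 and Bcl2 were lower with the inhibitor, at 0.685, 0.771 and 0.813 times their level without it. Bcl2l2 and the A1 genes were higher, at 1.27 times for Bcl2l2, 1.24 for Bcl2a1a, 1.21 for Bcl2a1d and 1.17 for Bcl2a1b. No member passed 1.5-fold in either direction, where 7.06% of all genes were past it upward and 11.8% downward.

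The difference of Bcl2l1 with the inhibitor was −0.55, at the 13.0th percentile of all genes, and lay between −0.55 and −0.50 in the alternatives. It was opposite in sign to its difference with etoposide and brought the level of Bcl2l1 to 0.872 times that of LPS, a log2 difference of −0.20 that was −0.015 with library totals. For Bcl2 the difference of −0.30 had the same sign as that with etoposide, so that its level with both drugs was 0.239 times that of LPS. For Mcl1 the same held, with a further difference of −0.37. The differences of Bcl2l2 (0.35), Bcl2a1a (0.31), Bcl2a1d (0.27) and Bcl2a1b (0.22) were opposite in sign to those with etoposide. Both comparisons use the same etoposide libraries, so that an opposite sign in the one is partly built into the other.

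**Figure D2:**
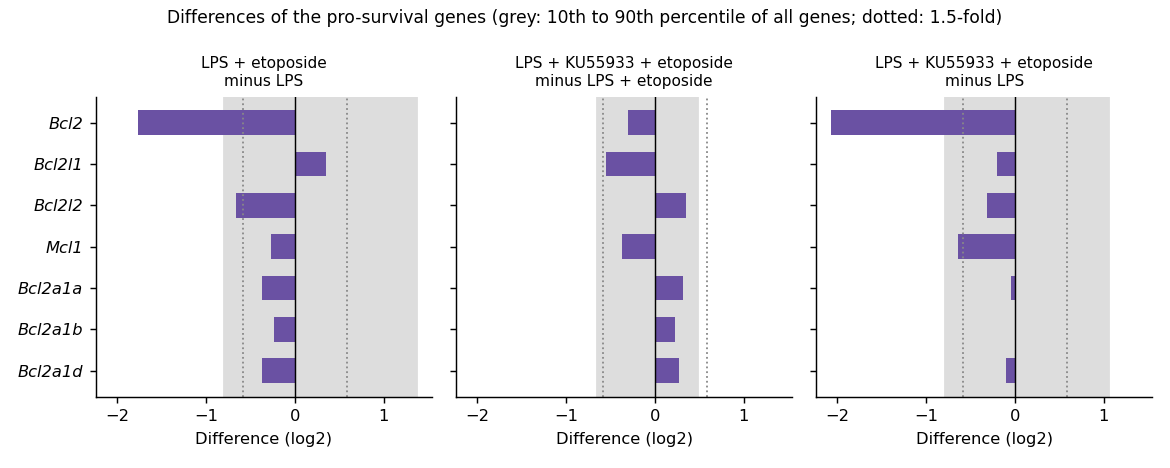
Log2 difference of each member in the 3 comparisons (horizontal bars, 1 fitted value each, with no error); the grey band spans the 10th to 90th percentile of 15573 genes and dotted lines mark 1.5-fold. With etoposide against LPS only Bcl2 (−1.77) lies outside the band, and with KU55933 under etoposide Bcl2l1 (−0.55) is the lowest of the 7.

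With KU55933 and etoposide against LPS, a comparison that is the sum of the other two, all 7 members were lower with the size factors of the authors, as were 49.2% of all genes, although the sign of the 3 A1 genes turned with other scalings. The median difference was −0.20 for the members and 0.012 for all genes. Bcl2 (−2.07) and Mcl1 (−0.64) were past 1.5-fold downward, which 16.1% of all genes were, and no member was past it upward, which 20.2% of all genes were. Bcl2 alone was past 2-fold downward, as were 6.04% of all genes. Mcl1 came within the limit at −0.46 with library totals and at −0.29 after quantile normalization. The A1 genes differed from LPS by at most 0.10 in size (−0.049 for Bcl2a1a, −0.0030 for Bcl2a1b and −0.10 for Bcl2a1d). All 3 were higher than with LPS when library totals were used, at 0.13, 0.18 and 0.081, Bcl2a1b and Bcl2a1d were higher after quantile normalization, and Bcl2a1b was higher with medians of ratios over the genes that passed the filter, so that no direction is given for them. Bcl2l2 stood at −0.31 and Bcl2l1 at −0.20, and with library totals these were −0.13 and −0.015.

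The levels of different genes were compared per length, as fitted counts per kb of merged exons. With LPS, Mcl1 was the most abundant at 4393 per kb, followed by Bcl2a1d (3931), Bcl2a1b (1531), Bcl2a1a (1376), Bcl2 (646), Bcl2l1 (310) and Bcl2l2 (170). With etoposide Bcl2l1 (395 per kb) stood above Bcl2 (190 per kb), so that the ratio of Bcl2l1 to Bcl2 went from 0.480 with LPS to 2.08 with etoposide, and it was 1.75 with the inhibitor as well. With coding length in place of exonic length, Bcl2, whose merged exons span 9157 bases against 729 of coding sequence, moved from the fifth to the second place with LPS. On that scale Bcl2l1 did not stand above Bcl2 in any condition. Bcl2 and Bcl2l1 were at 8119 and 1866 per kb with LPS, at 2386 and 2376 with etoposide, and at 1939 and 1628 with the inhibitor as well, so that their ratio was 0.230, 0.996 and 0.839. With the inhibitor, Bcl2a1d (3666 per kb of exon) stood above Mcl1 (2810 per kb of exon). This order did not hold with coding length, where Mcl1 stood at 9671 and Bcl2a1d at 6132 per kb. Without replicate values, which neighbours in these orders differ beyond their spread could not be tested. The places of the A1 genes, also relative to Mcl1, depend as well on how the reads shared between copies were counted, which is not known.

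**Figure D3:**
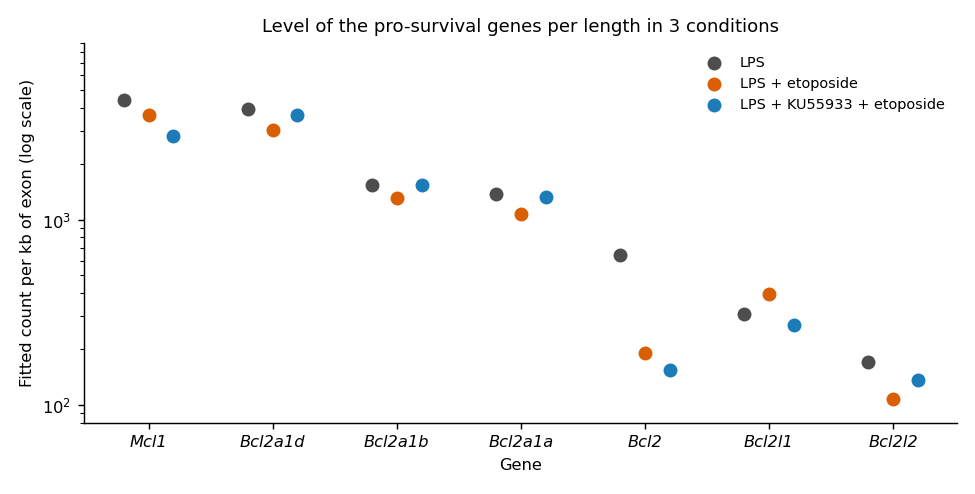
Fitted count per kb of exon (vertical axis, log scale) of the 7 members, with 1 point per condition. Mcl1 and Bcl2a1d lie highest in every condition, and, on this exonic scale but not with coding length, Bcl2 and Bcl2l1 exchange places between LPS (646 and 310) and LPS+etoposide (190 and 395).

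Summed over the 7 genes, the count per kb was 12358 with LPS, 9750 with LPS+etoposide and 9895 with KU55933 as well. On this exonic scale the sums of the last 2 conditions were similar but had a different makeup. With coding length the sums were 37403, 26855 and 24796 in the same order. Without the A1 genes they were 5520, 4336 and 3371 per kb of exon. Mcl1 made up 35.6% of the sum with LPS, 37.4% with etoposide and 28.4% with the inhibitor as well, while the 3 A1 genes together made up 55.3%, 55.5% and 65.9%. Bcl2 went from 5.23% to 1.95% and 1.56%, and Bcl2l1 from 2.51% to 4.05% and 2.73%. These shares depend on the length used and on the reads that the A1 copies share. With coding length, Bcl2 made up 21.7%, 8.89% and 7.82%, Mcl1 40.4%, 46.7% and 39.0%, and the 3 A1 genes together 29.9%, 32.9% and 43.0%. Without the A1 genes, Mcl1 made up 79.6%, 84.0% and 83.3% of the rest.

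**Figure D4:**
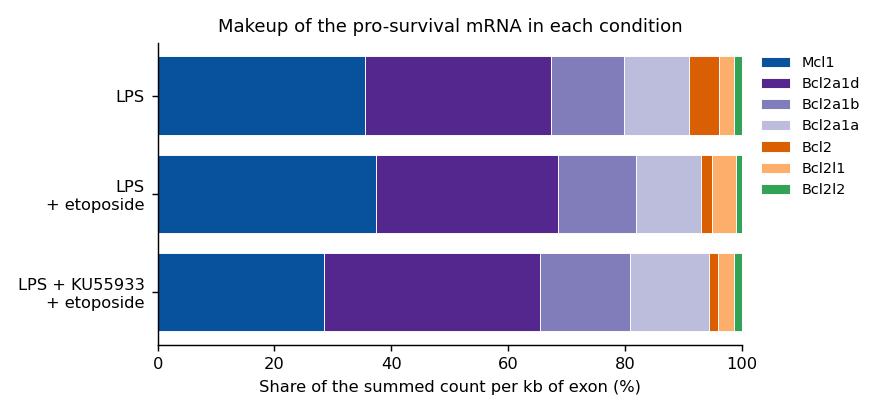
Share of each member in the summed count per kb of exon (horizontal axis, %), with 1 bar per condition. Mcl1 and the 3 A1 genes take up most of each bar, and the share of Mcl1 is 35.6% with LPS, 37.4% with etoposide and 28.4% with etoposide and KU55933.

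The 3 A1 copies had closely similar differences. Over the pair of differences (etoposide against LPS, and KU55933 under etoposide), Bcl2a1a and Bcl2a1d lay 0.042 apart and Bcl2a1b lay 0.16 and 0.15 from them, in log2 units. By the same measure Bcl2l2 lay 0.30 from Bcl2a1a and from Bcl2a1d and 0.45 from Bcl2a1b, and Bcl2 lay from 1.28 to 2.13 from the other members. Such closeness was not particular to the copies, as 225 other genes lay within 0.1 of Bcl2a1b. A further copy, Bcl2a1c, had 7.45, 5.58 and 6.91 counts and did not pass the filter. Since the copies share reads, the likeness of their values cannot be told apart from reads exchanged between them. The ratio of Bcl2a1d to Bcl2a1a per kb was 2.86, 2.84 and 2.76 in the 3 conditions.

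Genes with a pattern most like that of a member were sought over the 3 conditions among 10861 other genes with a mean of at least 100 counts. Among those nearest to Bcl2 was Id3, an inhibitor of E-protein transcription factors that lymphocytes use, at a distance of 0.047. In all, 5 genes lay within 0.1 of Bcl2. For Bcl2l1, 40 genes did, with Man2a2 (0.016) and Zfp961 (0.017) the nearest. For Mcl1, 101 genes did, with Psma2 (0.0078), a proteasome subunit, and Ncbp2 (0.019), a cap-binding subunit, the nearest. For Bcl2l2, 100 genes did, led by Tomm34 (0.0078), and for each A1 gene between 205 and 227 did. These counts follow how far a member lies from the bulk of genes, and few genes lie as far out as Bcl2.

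The genes for the partners of the pro-survival proteins lay on both sides. Of 8 BH3-only genes, 7 passed the filter, and with etoposide 4 were past 1.5-fold upward, against 21.8% of all genes, and 2 downward, against 16.5%. Pmaip1 (Noxa, which binds Mcl1 and A1) went from 1178 to 6740 counts, a difference of 2.52. Bbc3 (Puma, which binds all pro-survival members) went from 491 to 2126, a difference of 2.11. Both are known targets of p53. The 2 lower genes were Bid (−1.29) and Bmf (−1.03), of which Bid was named after its value was seen. With KU55933 under etoposide Pmaip1 and Bbc3 differed by −0.13 and 0.35, Bmf was past the limit upward (0.77), and Bik, also named after its value was seen and at no more than 16.2 counts, was past it downward (−0.74). With both drugs against LPS, 3 BH3-only genes were past it upward and 1 downward, against 20.2% and 16.1% of all genes. The largest differences were those of Bbc3 (2.46) and Pmaip1 (2.39). Of the 2 effector genes that passed, Bax was higher with etoposide (1.36) and Bak1 lower (−0.90). The median difference with etoposide was 0.88 over the BH3-only genes that passed, −0.36 over the pro-survival genes and −0.021 over all genes.

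**Figure D5:**
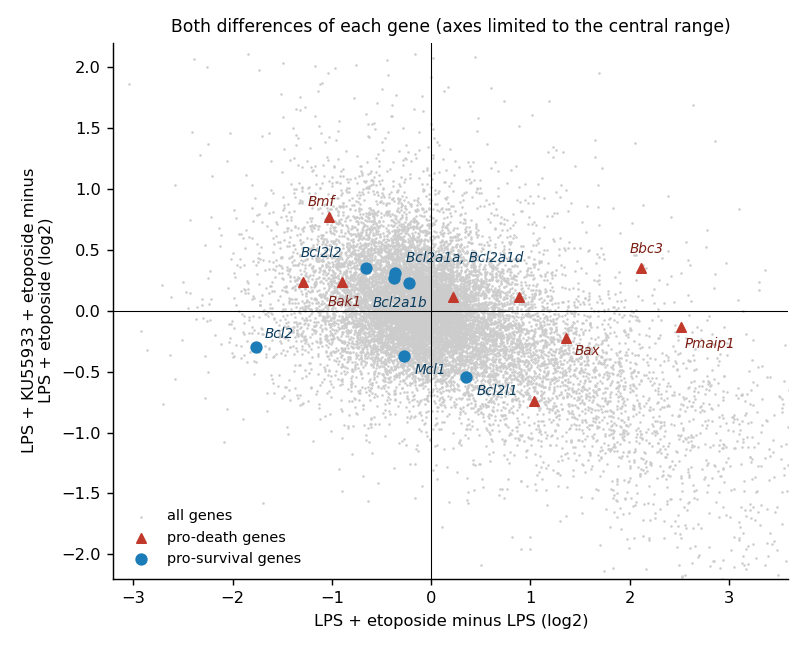
Each gene by its log2 difference with etoposide against LPS (horizontal axis) and with KU55933 under etoposide (vertical axis); grey points are 15367 genes within the axes (206 lie outside), circles the 7 pro-survival genes and triangles the pro-death genes that passed the filter. Bcl2 lies far to the left (−1.77), Bcl2l1 and Mcl1 below the horizontal line, and the A1 genes and Bcl2l2 above it, while Pmaip1 (2.52) and Bbc3 (2.11) lie far to the right.

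Other inhibitors of cell death and regulators of these genes were read from lists. Of all genes, 21.8% were past 1.5-fold upward and 16.5% downward with etoposide, and 20.2% and 16.1% with both drugs against LPS. The counts of these short lists were not tested against those shares. None of 6 caspase inhibitors that passed the filter (of 7 listed, the IAP genes and Cflar) was past 1.5-fold with etoposide. Birc5, which encodes survivin, was past it downward with both drugs against LPS (−0.92). Of the 4 genes for Mcl1 turnover that passed, none was past the limit with etoposide, and Fbxw7 (−0.77) and Huwe1 (−0.70), which encode a ubiquitin ligase component and a ubiquitin ligase for Mcl1 protein, were past it downward with both drugs against LPS. Library totals moved the median of all genes by 0.18 in that comparison, so that the calls of Fbxw7 and Huwe1 may not hold with them. Of 5 NF-kB subunit genes, Nfkb1 was past the limit downward with etoposide (−1.14) and none was upward. With both drugs against LPS, Rel (0.70) and Nfkb2 (0.60) were past it upward and Nfkb1 downward (−1.06). Nfkb2 lay close to the limit, which is 0.585 on the log2 scale. Medians of ratios moved the median of all genes by −0.050 in this comparison, so that the call of Nfkb2 may not hold with them.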

How the data were processed

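Libraries were made from polyA RNA of 12 samples, 4 per condition. Per the labels and the methods of the study, the authors trimmed reads with Trim Galore and cutadapt 1.2.1, mapped them to GRCm38 with TopHat2 2.0.12, obtained counts per Ensembl gene from HTSeq and modelled these in DESeq2 1.6.3. The deposited signal is, in each column, a model mean for the condition scaled to that library by its size factor. How reads with several mapping positions and strand were treated, and whether fold changes were moderated, is not given in the sources used here. The fold changes, standard errors and p-values of the authors' 3 comparisons were not used.

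Size factors were recovered by least squares from the deposited columns and the authors' mean count per gene, on 9175 of 10866 genes with a mean above 100. This replaced the planned medians of ratios after the columns were seen to hold fitted means, as the planned limma test needs replicate values. Factors ranged from 0.821 to 1.33. The functions were tested on simulated data. Exonic and coding lengths came from GENCODE M21 (GRCm38), promoters from RefSeq (GRCm38.p6, with all 7 members matched). Alternatives were TMM, library totals, quantile normalization, medians of ratios, pseudocounts of 0.5 and 5, no filter, a minimum of 50 counts and a limit of 2-fold. The members and the 7 further gene lists and 6 marker lists were chosen with earlier results of these data known. All members were named. From a list, at most the 2 genes with the largest difference past 1.5-fold and a mean of at least 50 were named per comparison, besides markers. Like genes were ranked by Euclidean distance over both differences, with at most 2 named per member. Some genes that these rules would name are not reported here. Python 3.11.15, numpy 2.4.6, pandas 2.3.3 and biopython 1.88 were used.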

Additional observations from a re-analysis of the deposited data

How the results depend on the processing

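The deposited values hold no spread between replicates, so that depth and replicate error could not be weighed. No paired analysis was possible because the 4 columns of a condition hold 1 fitted mean, and leaving out each replicate was not run for the same reason. Of 147 recomputed member differences, 144 stayed on their side of the 1.5-fold limit. This count says little of how stable the calls past the limit were. Most differences lay within the limit from the start, where a change of sign counts as staying, and pseudocounts hardly move genes at these levels. Of the differences past the limit, only those of Bcl2 stayed past it throughout. Bcl2l2 with etoposide fell within it with library totals (−0.53). Mcl1 with both drugs did so with library totals (−0.46) and quantile normalization (−0.29). With library totals, which moved the median of all genes by 0.13 and 0.18 for the comparisons of etoposide and of both drugs with LPS, the members past 1.5-fold downward numbered 1 in each. With quantile normalization they numbered 1 for both drugs against LPS, and with a limit of 2-fold 1 in each. Without the filter, 23.0% of all genes were past 1.5-fold for both drugs against LPS, against 36.2% with it. The causes of these changes were not tested. Genes of the further lists and the markers were not recomputed, so that their calls near the limit may not hold under other scalings.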

Other observations

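Bcl2 spans 176 kb of genome, the other 6 members 4.39 to 51.1 kb. In classes of genomic span set after the values were seen, the median difference with etoposide against LPS was 0.0028 for 5521 genes under 10 kb and −0.25 for 1525 genes of 100 kb or more. In the latter class 30.5% of genes were past 1.5-fold downward, against 14.9% of those under 10 kb, and 1.44% were as low as Bcl2 or lower. The part of span in the value of Bcl2 was not tested.

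Further along the mitochondrial pathway, 8 of 8 listed genes passed the filter, and with etoposide 2 were past 1.5-fold upward and 2 downward. Of all genes, 21.8% were past it upward and 16.5% downward, and the counts of this list were not tested against those shares. Apaf1, which encodes the scaffold of the apoptosome, went from 2530 to 7042 counts, and it stood at 4305 counts with KU55933 as well. Of 4 other Bcl2-like genes that passed the filter, Bcl2l15 was higher with etoposide (45.4 to 190 counts) and Bcl2l12 lower (284 to 153).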
